A study of Mus musculus and Mus musculus x Mus spretus with 8 samples.

Results

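Tubulin genes were examined in 8 single cells of the mouse carotid body, a small sense organ of the neck that monitors oxygen in arterial blood. The members are 10 named genes, 3 encoding alpha tubulin (Tuba1a, Tuba1b and Tuba1c) and 7 encoding beta tubulin (Tubb2a, Tubb2b, Tubb3, Tubb4a, Tubb4b, Tubb5 and Tubb6). They were taken by symbol from a table of 24060 gene symbols, and all 10 were found in it. The cells are labelled as glomus cells of wild-type pups aged 4 to 5 postnatal days, with no treatment. The strain label is C57BL/6 for 7 cells and C57BL/6 X SPRET/EiJ for cell 2, a cross with a mouse of another species. The study picked them as cells that expressed Th, Uchl1 and Kcnk3, so these 3 genes check the labels and are no finding. All 3 were present in all 8 cells, and the lowest single value among them was 199 RPM, for Kcnk3 in cell 7.

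Alpha and beta tubulin form the paired subunits from which microtubules are built, the hollow fibres that shape a cell and carry its vesicles. Mammals make each subunit from several genes, called isotypes. Their proteins are nearly alike in the folded core and differ most in a short acidic tail at the end of the chain, which lies on the microtubule surface and is the site of many chemical modifications. Tubb3 is widely used as a marker of neurons, while Tubb5 and Tubb4b are found in many tissues, and Tuba1a is known as the leading alpha gene of young neurons.

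The data are read counts and RPM, which is reads per 1000000 reads of the cell. The counts summed to 3960200 to 7074346 reads in 7 cells and to 30218206 in cell 2. The labels name no animal for any cell, so the 8 cells count as 1 sample. No test was run, and medians, ranges and SDs describe these cells alone. A gene is called detected at 1 RPM or more, and a count of 0 allows a level of up to 3 reads, between 0.0993 RPM in cell 2 and 0.758 RPM in cell 1. Such limits and intervals speak of counting error alone, because reads copied by PCR from 1 molecule are counted separately. Levels of different genes are compared only as RPM per kilobase of transcript. Of 12 glomus cell markers all were detected in at least 6 cells, as were 14.2% of all symbols. The 12 include Th, Uchl1 and Kcnk3, by which the cells were picked, so this count and the sums are partly set by that choice. Cell 4 stood apart in the 12 markers. Their sum was 9620 RPM there against 21830 to 36600 RPM in the other 7 cells, with Olfr78 at 0.202 RPM and Cox4i2 at 0 reads. Of 12 markers of sympathetic and sensory neurons 8 were detected in cell 4, at a sum of 6315 RPM, against 2 to 4 markers and sums of 239 to 1699 RPM in the others. P2rx3, Slc17a6 and Ntrk2 of that list were at 0 in all 8 cells. Results that rest on cell 4 are therefore given with and without it.

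The ends of the beta genes' coding sequences are shown first, because they hold the part in which the isotypes differ most and show how close some of them are. Each line is the last 60 coding bases of the longest principal coding transcript in the GENCODE M21 annotation of build mm10, 5′ to 3′ on the coding strand, stop codon included. Capitals mark the codons for the acidic residues glutamate and aspartate.
Tubb2a: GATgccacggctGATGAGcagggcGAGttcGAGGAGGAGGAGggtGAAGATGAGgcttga
Tubb2b: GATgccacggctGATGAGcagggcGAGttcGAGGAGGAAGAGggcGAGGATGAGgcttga
Tubb3: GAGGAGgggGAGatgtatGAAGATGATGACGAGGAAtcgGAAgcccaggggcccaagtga
Tubb4a: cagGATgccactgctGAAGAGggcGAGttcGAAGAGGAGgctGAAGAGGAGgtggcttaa
Tubb4b: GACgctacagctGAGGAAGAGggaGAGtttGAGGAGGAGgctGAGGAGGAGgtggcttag
Tubb5: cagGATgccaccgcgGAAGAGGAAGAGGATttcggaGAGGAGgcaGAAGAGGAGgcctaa

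Each of these ends held 10 or 11 acidic codons among its 20. Tubb2a and Tubb2b differed at 3 of the 60 bases. Tubb4a and Tubb4b, in spite of their paired names, differed at 13, and Tubb5 differed from Tubb4a at 18 and from Tubb3 at 33. Over the whole coding sequence Tuba1a and Tuba1b were 98.3% identical and Tubb2a and Tubb2b 96.5%. Tubb5 was 84.3% identical to Tubb4a and 82.3% to Tubb3. The starts of the genes matter too, since cells adjust tubulin RNA to free tubulin through a factor, TTC5, that reads the first residues of the new chain. The first 12 bases, with codons 2 to 4 in capitals, were atgCGTGAGTGC in all 3 alpha genes and, for example, atgAGGGAAATC in Tubb5 and atgAGGGAGATC in both Tubb3 and Tubb4b.

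How far a read can be assigned to 1 of these genes was measured on the transcripts. Every stretch of 50 bases in a member's transcript was searched for on both strands of the transcripts of all other genes in GENCODE M21, pseudogenes included. Genome sequence outside annotated transcripts was not searched. Stretches also found elsewhere made up 75.5% of Tuba1a, 83.1% of Tuba1b and 61.0% of Tuba1c. They made up 49.6% of Tubb2a, 39.3% of Tubb2b and 55.5% of Tubb4b. In Tubb5 this was 0.115%, in Tubb4a 0.184%, and in Tubb3 and Tubb6 it was 0%. The levels of Tubb3, Tubb4a, Tubb5 and Tubb6 thus come from sequence that is nearly all their own among annotated transcripts, while the other 6 are uncertain, because it is not known how the authors counted reads that match several places. Outside the coding part, shared stretches made up 0% of Tuba1c, Tubb2a and Tubb2b, 21.9% of Tuba1a, 27.7% of Tubb4b and 40.6% of Tuba1b. Where along the transcripts the reads fell is not known either, and levels per kilobase depend on it too.

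**Figure D1:**
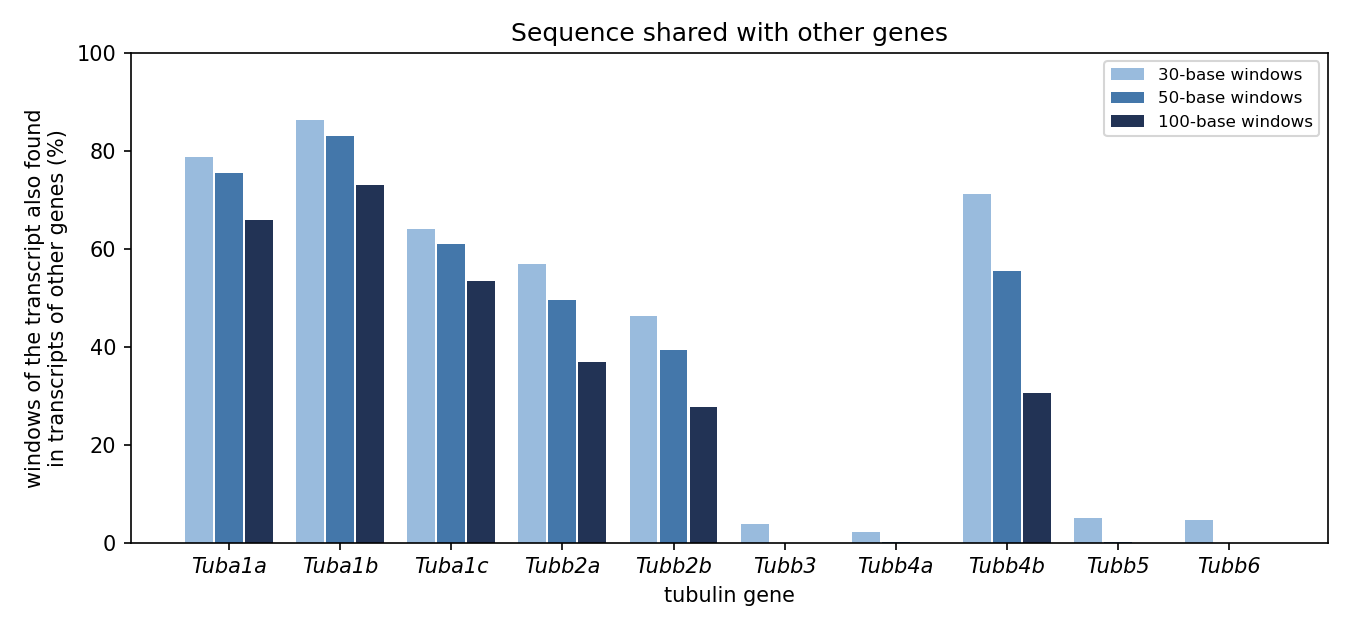
Percent of the windows of each tubulin transcript (bars, for windows of 30, 50 and 100 bases) that also occur in transcripts of other genes. The 3 alpha genes, Tubb2a, Tubb2b and Tubb4b have tall bars at every window size (27.7% to 86.2%), and the bars of Tubb3, Tubb4a, Tubb5 and Tubb6 reach at most 4.92%.

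The shared stretches follow the genes' positions only in part. Tuba1b, Tuba1a and Tuba1c lie together on chromosome 15 of mm10, at 98931425 to 98934565 and 98949837 to 98953703 on the minus strand and 99029891 to 99038110 on the plus strand. Tubb2a and Tubb2b are neighbours on chromosome 13, at 34074274 to 34078007 and 34126748 to 34130466, both on the minus strand and 48.7 kb apart. Each of these genes has 4 exons in its longest principal transcript. Tubb2a shared 45.6% of its stretches with Tubb2b. Tuba1a shared 46.9% with Tuba1c and also held stretches found in 16 genes that are no members, most of them unnamed models. Tubb4b (chromosome 2, 25222160 to 25224702, minus strand) shared none with another member and 43.6% with its pseudogene Tubb4b-ps1. Of the genes outside the members that share stretches with one, 6 were in the deposited table, and 2 of them, the pseudogene Tubb2a-ps2 and Fadd, reached 1 RPM in any cell.

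Of the 10 tubulin genes, 5 were detected in all 8 cells, namely Tuba1a, Tuba1b, Tubb2a, Tubb4b and Tubb5. Over all symbols of the table, 4.88% were. Another 3 were detected in some cells (Tubb4a in 5, Tubb3 in 4 and Tubb2b in 2), and Tuba1c and Tubb6 in none, as were 55.2% of all symbols. No member was detected in exactly 6 or 7 cells. At a limit of 10 RPM the number detected in all 8 cells was 3, since Tubb5 fell under it in cell 2 and Tubb4b in cell 1.

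**Figure D2:**
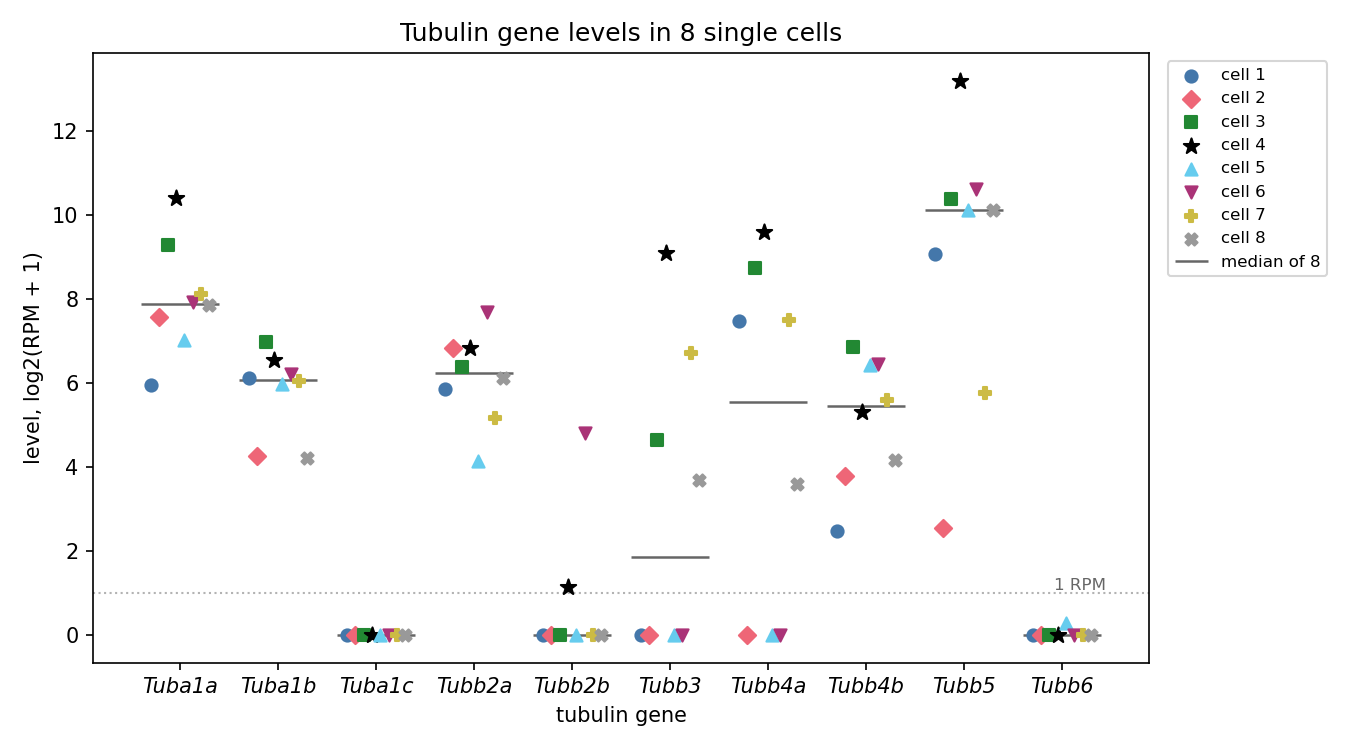
Level of each tubulin gene on the log2(RPM + 1) scale in 8 single cells (1 marker shape and colour per cell), with the median as a line and the detection limit of 1 RPM dotted. Tubb5 spans from 2.54 in cell 2 to 13.20 in cell 4, Tubb4a and Tubb3 are at 0 in some cells and high in others, and Tuba1b and Tubb2a keep to a narrower range.

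Among the beta genes, Tubb5 (chromosome 17, 35833921 to 35838306, minus strand) encodes the class I isotype of most tissues. Its level in cells 1 to 8 was 539, 4.83, 1344, 9429, 1119, 1578, 52.9 and 1122 RPM. The level of cell 4 was 5.98 times that of the next cell. In 5 further cells it lay between 539 and 1578 RPM, and cells 2 and 7 were far below them. The low value of cell 2 rested on 146 reads (95% Poisson interval 4.08 to 5.68 RPM) and that of cell 7 on 343 reads (47.4 to 58.8 RPM), and both intervals lie below the 539 RPM of cell 1. Cell 2 is the cell of the species cross, and whether reads of the other parent's allele failed to align was not tested. Of the other members in cell 2, Tubb2a (112 RPM) was the third highest of its 8 values, while Tuba1b (18.3 RPM) and Tubb4b (12.7 RPM) were each the second lowest. They are given as values only and do not test how that allele aligned. The SD of Tubb5 over the cells was 3.32 log2 units, and 3.07 without cell 4. The median SD of the 1173 genes detected in all 8 cells was 1.63.

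Tubb4a (chromosome 17, 57080066 to 57087782, minus strand), an isotype best known from brain, was present in some cells and not detectable in others. It stood at 177, 0, 427, 776, 0, 0, 181 and 11.2 RPM in cells 1 to 8. Cells 2, 5 and 6 had 0 reads, which allows up to 0.0993, 0.670 and 0.424 RPM. These limits lie below the 11.2 RPM of cell 8 (77 reads, interval 8.82 to 13.96 RPM), the lowest of the 5 cells that detected it. The highest value was again in cell 4, at 1.82 times the next.

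Tubb3 (chromosome 8, 123411424 to 123422015, plus strand), the neuronal isotype, was at 0, 0, 24.1, 544, 0, 0, 103 and 11.9 RPM. Cells 1, 2, 5 and 6 had 0 reads. The value of cell 4 was 5.27 times that of cell 7, and without cell 4 the highest was 103 RPM. All 4 cells with Tubb3 also had Tubb4a, and of the 5 cells with Tubb4a only cell 1 lacked Tubb3. This overlap was noticed after the values were seen and was not tested. With 8 cells, and a transcript that may be lost before amplification, a 0 in 1 cell does not show that the gene was silent there.

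Tubb2a and Tubb2b, both known from neurons, differed in how often they were seen. Tubb2a was at 57.3, 112, 82.8, 113, 16.8, 205, 35.0 and 68.1 RPM, with a median of 75.5 and an SD of 1.09 log2 units. No cell stood far from the others. Tubb2b had 6 reads in cell 4 (1.21 RPM), 191 reads in cell 6 (26.999 RPM) and 0 reads in the other 6 cells. Cell 6 was also the cell with the highest Tubb2a and the highest Tubb2a-ps2 (18.5 RPM), a pseudogene that shares sequence with both. What part of the Tubb2b reads belongs to these relatives was not tested. Per kilobase and on the log2 scale, Tubb2a exceeded Tubb2b in each cell, the median difference being 5.31 (SD 1.05, range 3.26 to 6.14), and in the 6 cells without a Tubb2b read this difference is set by the pseudocount.

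Tubb4b, a widespread isotype that is also abundant in cilia, was at 4.55, 12.7, 115, 38.6, 84.7, 85.9, 47.5 and 17.0 RPM. Its highest value was in cell 3 and its lowest, of 18 reads, in cell 1. Tubb4a and Tubb4b did not keep an order. On the log2 scale of RPM per kilobase Tubb4a was above Tubb4b in cells 1, 3, 4 and 7 and below it in cells 2, 5, 6 and 8, with a median difference of 0.23 (SD 4.00, range -5.78 to 4.38). Tubb6, the class V isotype, had 1 read in cell 5 (0.223 RPM) and 0 in all other cells. Its transcript shares no 50-base stretch with another gene among the annotated transcripts searched.

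Among the alpha genes Tuba1a was at 61.1, 189, 624, 1368, 129, 242, 276 and 230 RPM in cells 1 to 8, with a median of 236 RPM. Cell 4 was the highest, at 2.19 times cell 3, and cell 1 the lowest. Tuba1b, found in most tissues, was at 68.4, 18.3, 125, 92.7, 62.4, 73.2, 65.0 and 17.4 RPM, and cells 2 and 8 lay below the other 6. Its SD was 1.02 log2 units, and 1.05 without cell 4, which was not its highest cell. That of Tuba1a was 1.36, and 1.02 without cell 4. Tuba1c had 0 reads in all 8 cells. Of its 1933 stretches of 50 bases 754 occur in no other annotated gene. Reads that fit the rest may have been counted for other genes, which was not tested. Per kilobase Tuba1a exceeded Tuba1b everywhere except in cell 1, where the difference was -0.21 on the log2 scale. The median difference was 2.13 (SD 1.36).

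The make-up of beta tubulin transcripts was then compared within each cell, as each gene's share of the summed RPM per kilobase of the 7 beta genes. Tubb5 held the largest share in 6 cells, with 63.4% in cell 1, 60.8% in cell 3, 82.9% in cell 4, 86.9% in cell 5, 75.5% in cell 6 and 86.8% in cell 8. Cell 2 was led by Tubb2a, with 87.7%, and Tubb5 had 2.29% there. Cell 7 was led by Tubb4a with 39.1%, followed by Tubb3 with 26.6%, Tubb4b with 14.3%, Tubb2a with 10.4% and Tubb5 with 9.59%. The leading gene of each cell was the same with no length, with merged exon length and with the length of sequence found nowhere else. The median share of Tubb5 was 69.4% (SD 33.96, range 2.29 to 86.9) and moved between 58.2% and 76.3% under these choices.

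**Figure D3:**
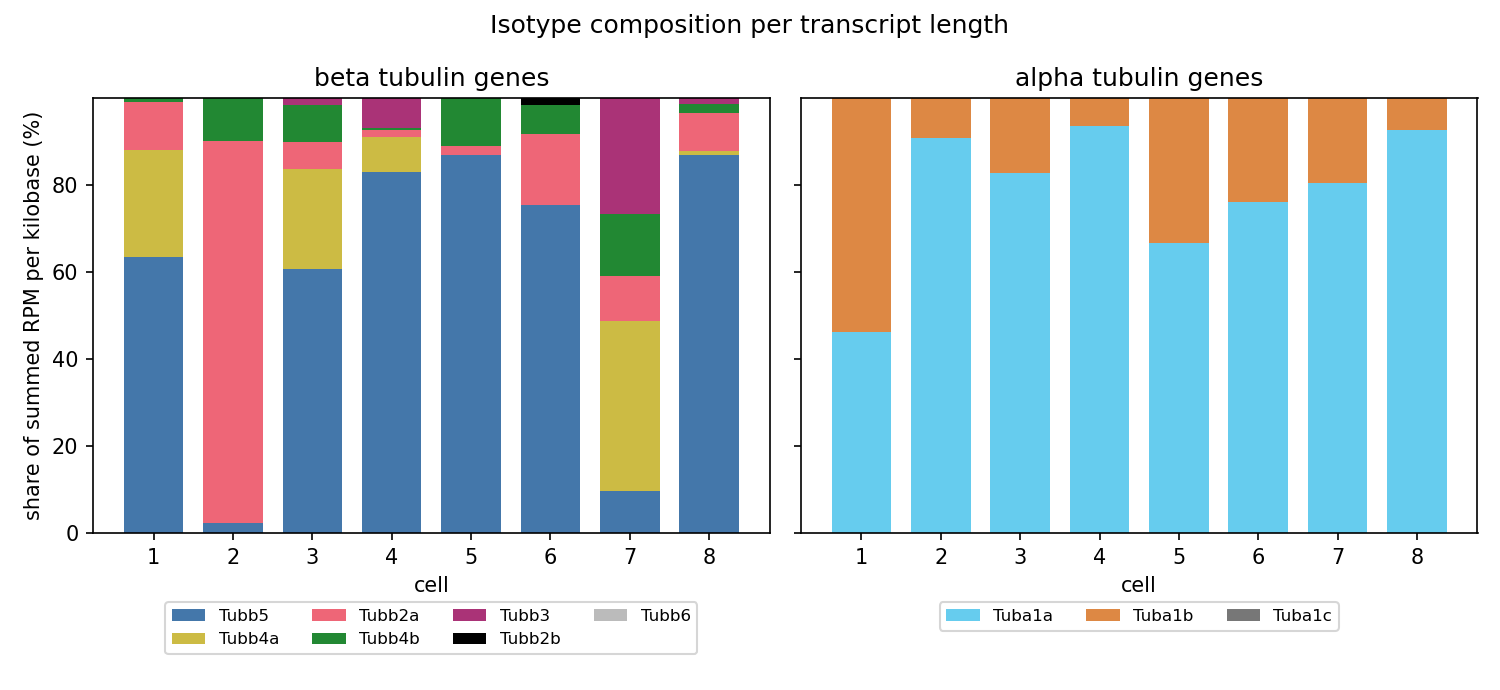
Share of each gene in the summed RPM per kilobase of the 7 beta genes (left) and the 3 alpha genes (right) in cells 1 to 8, as stacked bars that add up to 100%. Tubb5 fills most of the beta bar in 6 cells, Tubb2a fills 87.7% in cell 2 and cell 7 is divided among 5 genes, while Tuba1a takes from 46.3% to 93.5% of the alpha bar.

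The second beta gene also changed from cell to cell. It was Tubb4a in cells 1 (24.7%), 3 (22.9%) and 4 (8.11%), Tubb4b in cells 2 (9.98%) and 5 (10.9%), Tubb2a in cells 6 (16.1%) and 8 (8.67%) and Tubb3 in cell 7. In cell 7 this depended on the length. With the length of sequence found nowhere else, Tubb4b was second there with 25.2%, ahead of Tubb3 with 20.7%. The number of beta genes detected ranged from 3 in cells 2 and 5 to 6 in cell 4. Among all symbols, 5604 were detected in cell 2, 4040 in cell 5, the fewest of any cell, and 5140 in cell 4. As a difference in log2 level per kilobase, Tubb5 was above Tubb4a (median difference 2.42, SD 3.96) and above Tubb3 (5.52, SD 3.69) in all cells but cell 7. In 3 cells Tubb4a and in 4 cells Tubb3 had 0 reads, and there the pseudocount sets the difference. The median over Tubb4a was 1.498 without cell 4, 5, 6 or 8 and 3.81 with a pseudocount of 0.1. Tubb5 was above Tubb2a (median difference 2.88, SD 3.29) and Tubb4b (3.21, SD 3.02) in all cells but cells 2 and 7. With the length of sequence found nowhere else these medians were 1.89 and 2.04. Among the alpha genes Tuba1a had a median share of 81.6% (SD 16.0) and led in all cells but cell 1.

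The 10 members together took 0.0907%, 0.0338%, 0.274%, 1.24%, 0.141%, 0.221%, 0.0761% and 0.148% of the reads of cells 1 to 8. The median was 0.144%, or 0.141% without cell 4. The share of cell 4 was 4.51 times that of cell 3, the next in order, and the share of cell 2 was the lowest. The beta sum exceeded the alpha sum, both in RPM per kilobase, in 7 of 8 cells, with a median ratio of 3.97 and a range of 0.688 in cell 2 to 5.29 in cell 4. In cell 2 the alpha sum was the larger, and in cell 7 the ratio was 1.09. This order depends on the length. When RPM was divided by the length of sequence found in no other gene, the length that applies if reads with several matches were dropped, the beta sum was above the alpha sum in 3 of 8 cells, and the median log2 ratio was -0.077 in place of 1.98. Under all 4 choices of length the alpha sum was the larger in cell 2 and the beta sum in cells 4, 5 and 6, while in cells 1, 3, 7 and 8 the order changed with the length.

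**Figure D4:**
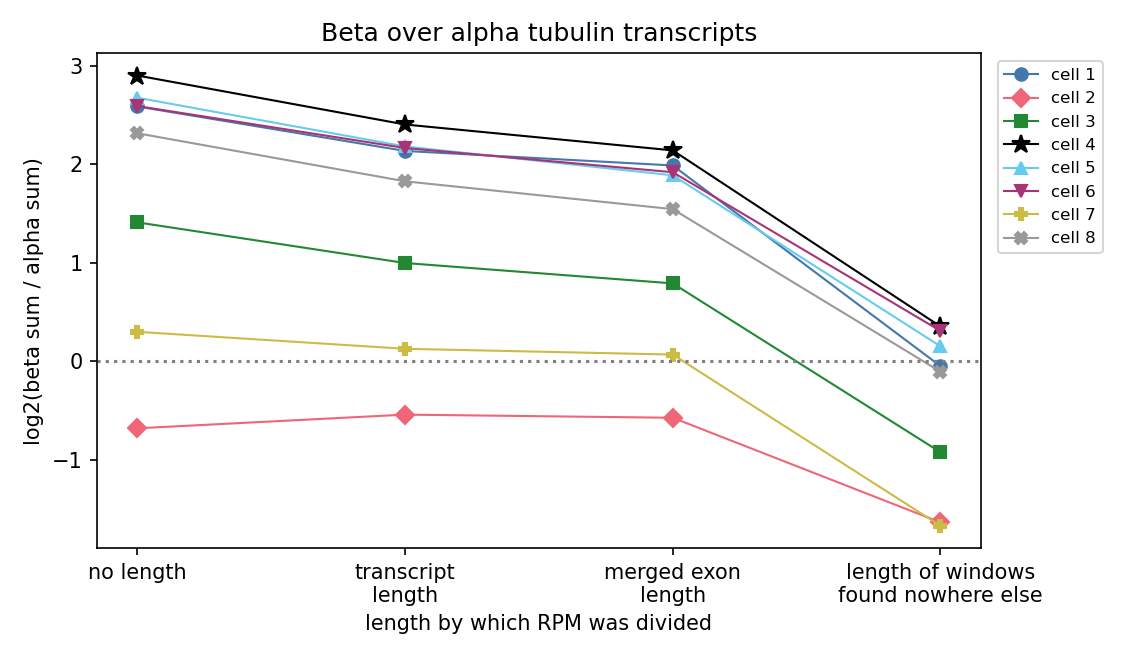
Log2 ratio of the beta sum to the alpha sum in each of 8 cells (lines) when RPM is divided by no length, by transcript length, by merged exon length or by the length of sequence found nowhere else. Cells 2 and 7 lie lowest throughout, and most lines drop to near or below 0 with the last choice, where the median is -0.077.

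Among the 5 detected in all cells, the 10 pairwise Pearson correlations of log2 level over the 8 cells ran from -0.05 for Tubb2a and Tubb4b to 0.55 for Tuba1b and Tubb5. The cells may share animals and differ in depth, and correlations over 8 cells are given as a description only. The 10 Spearman values were all positive, from 0.12 to 0.62. Without cell 4 the Pearson value of Tuba1a and Tubb5 fell by most, from 0.41 to 0.06, and that of Tuba1a and Tubb4b went from 0.52 to 0.69. Of these 5 members, cell 4 was the highest in Tuba1a and Tubb5, cell 3 in Tuba1b and Tubb4b and cell 6 in Tubb2a. Of all 3422 genes detected in at least 6 cells, cell 4 was the highest in 13.3%, cell 3 in 14.2% and cell 6 in 14.9%.

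The genes with the pattern most like that of Tubb5, among 3417 genes detected in at least 6 cells, were Kdelr1 (r = 0.95, and 0.93 without cell 4), Ccdc124 (0.94, and 0.97 without cell 4) and Phox2a (0.94, and 0.96 without cell 4). Their Spearman values were 0.71, 0.98 and 0.71. Phox2a is a transcription factor of sympathetic and carotid body cells, and Kdelr1 returns proteins to the endoplasmic reticulum. All 3 were lowest in cells 2 and 7, as was Tubb5, by whose pattern they were picked. Kdelr1 stood at 98.0 RPM in cell 2 and 125 in cell 7, against 307 to 729 in the other cells, and Phox2a at 76.5 and 121 RPM against 298 to 762. For the summed tubulin level the nearest were the actin gene Actb (r = 0.93, and 0.95 without cell 4), Dpysl3 (0.92, and 0.85 without cell 4), which encodes a tubulin-binding protein of growing axons, and Cldn25 (0.85, and 0.87 without cell 4). Their Spearman values were 0.93, 0.83 and 0.76. Actb stood at 381, 106, 1058, 1375, 521, 502, 205 and 393 RPM. It was highest in cells 4 and 3 and lowest in cells 2 and 7, the same 4 cells that lay at the ends of the summed tubulin order. These are the nearest of 3417 genes over 8 cells, and no p is given for them. Since they were picked by r, their shared lowest and highest cells follow largely from that choice and are no finding.

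Tubulin genes outside the 10 members were seen in few cells. Of 10 such genes none was detected in at least 6 cells and 6 in no cell, as were 55.2% of all symbols. The gamma tubulin gene Tubg1, which encodes the subunit that starts new microtubules, was at 98.98 RPM in cell 1 and at most 1 read elsewhere. Tubd1 (delta tubulin, a centriole protein) was at 440 RPM in cell 3 and 114 in cell 8, Tube1 (epsilon tubulin) at 111 RPM in cell 3 only, and Tuba8 at 49.2 RPM in cell 8. In the gamma tubulin ring complex 2 of 9 genes passed in at least 6 cells, Mzt1 (4.38 to 262 RPM) and Tubgcp3 (0 to 408 RPM). Of all symbols in the table, 14.2% passed this.

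Newly made tubulin is folded by the CCT chaperonin, to which prefoldin delivers it, and is then paired by the tubulin cofactors. All 13 chaperonin and prefoldin genes in the table passed in at least 6 cells, and 11 of them in every cell. Of all symbols, 14.2% and 4.88% did. Cct4 ranged from 181 to 805 RPM, Cct6a from 195 to 865 and Cct2 from 24.3 in cell 2 to 1712 in cell 5. The chaperonin and prefoldin sum ran from 1736 to 4777 RPM over the cells and that of the tubulin members from 338 to 12362 RPM, both highest in cell 4. Without cell 4 they ran from 1736 to 4383 RPM and from 338 to 2743 RPM. Of 8 cofactor and feedback genes 3 passed in at least 6 cells, where 14.2% of all symbols did. Tbcel ranged from 0 to 453 RPM and the GTPase gene Arl2 from 0 to 112. Ttc5, the feedback factor named above, ranged from 0 in cell 5 to 163 RPM in cell 7.

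Of 25 genes for tubulin-modifying enzymes 3 passed in at least 6 cells, where 14.2% of all symbols did. Another 11 had 0 reads everywhere, where 55.2% of all symbols were below 1 RPM in every cell. The 3 that passed were Sirt2, Agtpbp1 and Ttll7. Sirt2 is a deacetylase (0 to 654 RPM). Agtpbp1 trims glutamates from the tail (0 to 246 RPM), and Ttll7 adds them (0 to 143 RPM). Of 27 genes of microtubule-associated proteins 13 passed. Eml5 was at 1350 to 4474 RPM in all 8 cells. Map1b, a stabiliser of growing axons, reached 2576 RPM in cell 4, with the other 7 cells at 256 to 950 RPM, and Dclk1 at 254 to 1264 RPM. Of 12 stathmin and severing genes 3 passed, the stathmins Stmn2 (51.8 to 5111 RPM, at most 2220 without cell 4) and Stmn3 (261 to 1011 RPM), which bind free tubulin, and the severing enzyme gene Spast (0 to 641 RPM, at most 391 without cell 4).

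Motor proteins carry vesicles along microtubules, and plus-end proteins ride on their growing tips. Of all symbols in the table, 14.2% passed in at least 6 cells. Of 14 plus-end genes 11 did, among them Mapre2 (44.8 to 1030 RPM), Nav1 (0 to 2598 RPM, at most 1150 without cell 4) and the dynein regulator gene Pafah1b1 (95.3 to 484 RPM). Of 15 kinesin genes 10 passed, with Kif5b at 52.5 to 721 RPM, Kif1b at 30.6 to 1438 and Kif1a at 43.7 to 704. Of 18 dynein and dynactin genes 16 passed, with Dynlt3 at 61.5 to 1050 RPM, Dctn2 at 4.33 to 949 and Dctn1 at 37.8 to 568. These 3 genes of each list were named for their high mean level in RPM without a correction for length.

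**Figure D5:**
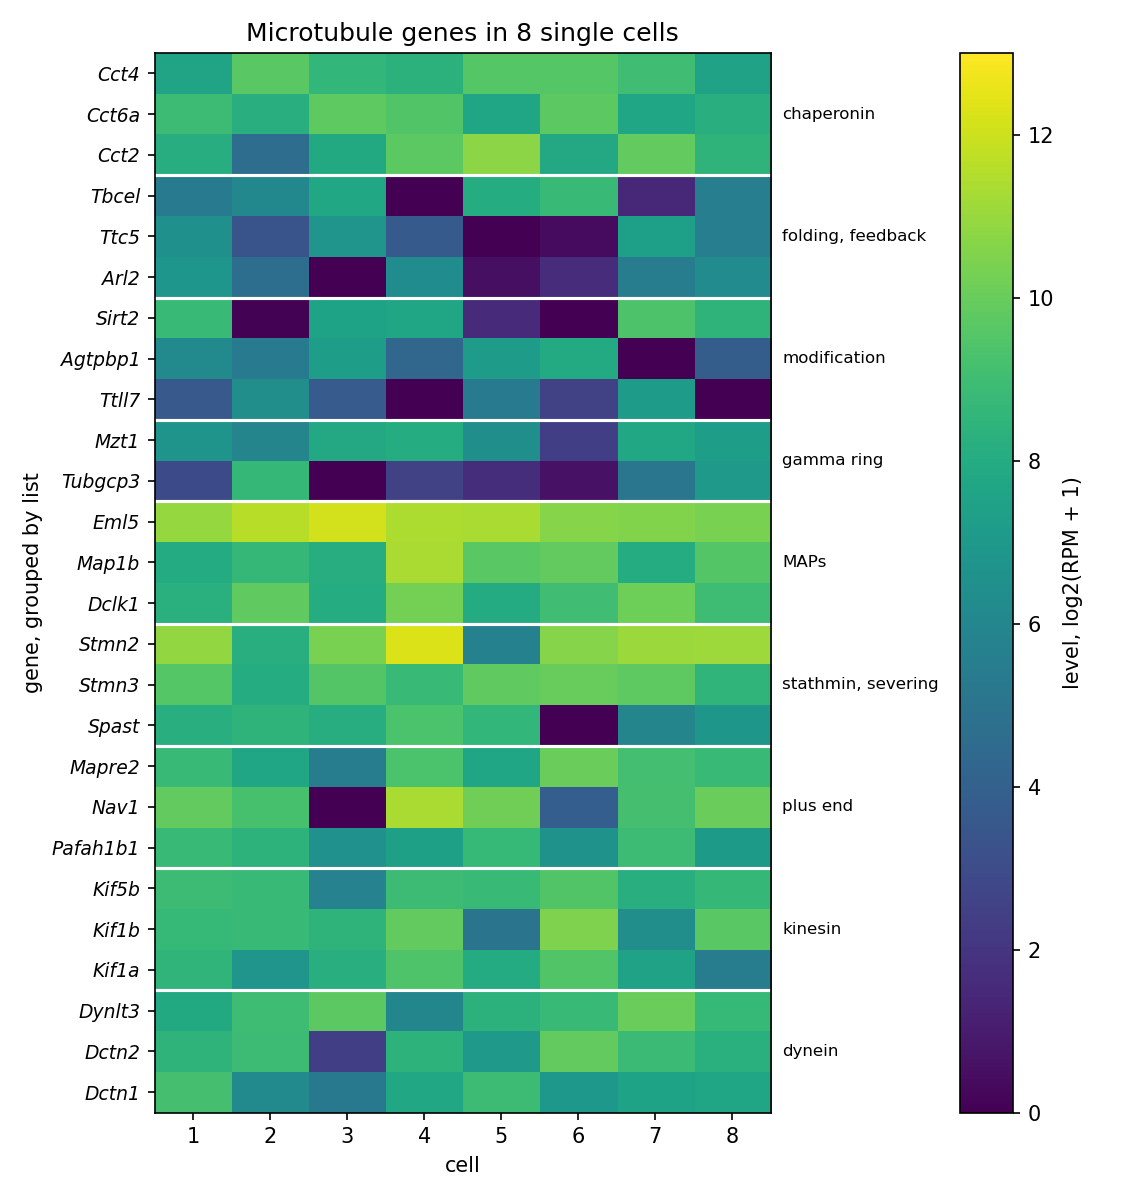
Level on the log2(RPM + 1) scale (colour) of the named microtubule genes (rows, grouped by list) in cells 1 to 8 (columns). Eml5 is bright in every cell, Stmn2 ranges from 51.8 RPM in cell 5 to 5111 RPM in cell 4, and the folding cofactor and modification genes are dark in some cells.

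Other microtubule genes were then counted by the cell in which they were highest. Of 74 microtubule genes outside the members that were detected in at least 6 cells, cell 4 was the highest of the 8 cells in 21, or 28.4%, against 13.3% of all 3422 genes detected that often. It was the lowest of the 8 in 8 of the 74, or 10.8%, against 15.6% of all genes, and Dynlt3 (61.5 RPM) was among these. Cell 6 was highest in 16 (21.6%, against 14.9% of all genes). It was also lowest in 14 of the 74 (18.9%), more than any other cell. How often it was lowest over all genes is not given here. The numbers highest in cells 1, 2, 3, 5, 7 and 8 were 8, 3, 8, 3, 10 and 5 of the 74. As percentages of the 74 these are 10.8%, 4.05%, 10.8%, 4.05%, 13.5% and 6.76%. The percentages over all genes were 7.86%, 12.9%, 14.2%, 15.7%, 11.6% and 9.44%. Some genes were picked for being high in cell 4 and are given as values only. The axonal protein gene Mapt was at 1736 RPM in cell 4 and at most 178 elsewhere, Dcx, a microtubule protein of young neurons, at 168 RPM and at most 0.253 elsewhere, and Kif5c at 1039 RPM and at most 312 elsewhere. Of the neuron markers, Dbh was at 2588 RPM, Nefl at 1143 and Prph at 223 in cell 4, each its highest value. The 2 markers of that list detected in at least 6 cells went the other way, with Hand2 at its lowest in cell 4 (122 RPM, against up to 744) and Nefh at 0 there (104 to 613 RPM in the 6 cells that detected it). Their part in the tubulin level was not tested.

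Markers of other cells were mostly near 0. Of all symbols in the table, 55.2% were likewise detected in no cell, so such absences are common here. Immune markers had 0 reads in all 8 cells for 8 of 8 genes. Of 9 glial and sustentacular markers 7 were detected in no cell, Sox10, S100b and Gfap among them. Of 8 endothelial markers only Cldn5 was detected, in 6 cells but not in cells 4 and 7, and Pecam1 and Cdh5 had 0 reads. Of 14 markers of dividing cells 9 were detected in no cell, Top2a and Cdk1 among them, and each of the other 5 in 1 cell, with Mki67 at 149 RPM in cell 4 and Ccnb2 at 249 RPM in cell 6. The spindle of a dividing cell is made of tubulin, and the part of cell division in the tubulin levels was not tested.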

How the data were processed

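RNA of each lysed cell went through RT-PCR, per the labels' protocols, and the amplified cDNA was made into libraries with Illumina kits, a Nextera kit among them. The aligner Bowtie and the build mm10 are named, per the submitters' processing notes. Not given in the sources used here are the aligner's version, how and against which annotation reads were counted, whether strand was used, and what was done with reads that matched several places. The authors deposited a read count per gene symbol and an RPM value per gene symbol, per the file headers. Scaling each count to a total of 1000000 per cell gave the deposited RPM to within 3.53e-06, so RPM is corrected for depth and not for length.

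Levels on a log2 scale are log2(RPM + 1), or log2(RPM per kilobase + 1) for differences between genes. Lengths came from the longest principal coding transcript in GENCODE M21. Windows of 50 bases were matched exactly with numba 0.67.0, coding sequences were aligned with Biopython 1.88, and both the window search and the correlation step were tested on simulated data. The text names all members, all further tubulin genes detected in any cell, from each other list the 3 genes of highest mean log2 level that at least 6 cells detected, and the 3 genes nearest in pattern. Other genes are named as chosen after their values were seen, or as markers, with their values. The members and lists were chosen with earlier results of these data known. Svbp and Pfdn6 were not among the symbols. The ends of the alpha coding sequences are not reported here. Alternatives were a pseudocount of 0.1, a detection limit of 10 RPM, other lengths, windows of 30 and 100 bases, size factors and leaving out each cell.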

Additional observations from a re-analysis of the deposited data

Results flagged for a closer look

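Values were checked by Dixon's ratio of gap to range, at its 95% limit for 8 values. A checked value is given here when 1 cell lay far from the other 7. The check covered 66 values, of which 11 passed, and chance alone passes about 1 in 20. It did not cover every gene named in the text. Olfr78 (0.202 RPM) and Cox4i2 (0 reads) in cell 4 are not among the 11, though the other cells had at least 1203 and 147 RPM. Of the members 1 is among the 11. Tubb2b in cell 6 stood at 26.999 RPM, with the next cell at 1.21 RPM. Among the other tubulin genes Tuba8 stood apart in cell 8 (49.2 RPM, next 0.202), Tubg1 in cell 1 (98.98 RPM, next 0.188) and Tube1 in cell 3 (111 RPM, next 0). Genes seen in 1 cell pass this limit readily. Among microtubule genes present in most cells, Mzt1 was low in cell 6 (4.38 RPM, next 58.5), Spast in cell 6 (0 RPM, next 60.3), the kinesin gene Kif5b in cell 3 (52.5 RPM, next 291) and the dynactin gene Dctn2 in cell 3 (4.33 RPM, next 131). Among glomus cell markers, Epas1 was low in cell 4 (170 RPM, next 5590), Ndufa4l2 in cell 4 (2.23 RPM, next 3393) and Uchl1 in cell 2 (331 RPM, next 932). Tubb5 in cells 2 and 4 did not pass on the log2 scale, since its other values are themselves wide apart.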

How the results depend on the processing

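With a detection limit of 10 RPM in place of 1 RPM, 3 members rather than 5 were detected in all 8 cells. The log2 ratio of the beta sum to the alpha sum was -0.077 with the length of sequence found nowhere else, an alternative chosen after seeing the data, against 1.98. Tubb4a minus Tubb4b, 0.23 at the median, was -0.91 with that length and ranged from -0.95 to 1.40 with 1 cell left out, below 0 without cell 1, 3, 4 or 7. In at least 6 cells at 10 RPM the lists held 1 gene of the gamma ring complex (2 at 1 RPM), 1 cofactor gene (3), 1 modifying enzyme gene (3) and 9 dynein and dynactin genes (16). In all 8 cells they held 1, 0, 0 and 8, with 6 microtubule-associated (13) and 5 plus-end genes (11). Ccdc124 had r = 0.85 to Tubb5 without cell 2, against 0.94. The SD of Tubb2b was 0.43 without cell 6, against 1.69. The median of the summed tubulin level was 0.141% to 0.148% with 1 cell left out. No paired analysis was possible because there is only 1 group. Depth limits what a count of 0 says to the levels given above, and the labels name no animals.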
